A study of Bos taurus with 3 samples.

Results

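The vacuolar proton pump (V-ATPase) was followed through 10 of its subunit genes in single epithelial cells of the bovine rumen. The genes were taken by name: 6 for the V1 part (ATP6V1A, ATP6V1B1, ATP6V1B2, ATP6V1C1, ATP6V1C2 and ATP6V1E1) and 4 for the V0 part (ATP6V0A1, ATP6V0A4, ATP6V0C and ATP6V0D1). All 10 were among the 19533 named genes of the deposited table. Tissue was taken from the ventral sac of the rumen in 3 adult lactating Holstein dairy cows under 1 condition, and each cow gave 1 droplet library. The rumen wall was stripped of muscle and digested with enzymes, and the authors removed cells that were not epithelial before deposit. The question was which subunit isoforms follow ATP6V1B1 across cells set apart by GJA1, GSTA1 and BPIFA2C.

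The V-ATPase is a rotary machine. The V1 part sits in the cytosol and hydrolyses ATP at sites formed by subunits A and B, and the turning stalk drives protons through the membrane-embedded V0 part, which is made of subunit a and a ring of c subunits. Most cells use the pump to acidify lysosomes, endosomes and secretory vesicles. Several subunits have alternative genes: ATP6V1B2 and ATP6V0A1 are the widely used forms of subunits B and a, while ATP6V1B1 and ATP6V0A4 are known from the acid-secreting intercalated cells of the kidney, where the pump works at the plasma membrane. The rumen epithelium absorbs short-chain fatty acids from an acidic content and has to handle the protons that come with them.

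Each cell was placed in a class by its own unique molecular identifiers (UMIs, tags that count captured transcripts) of 3 genes that are not subunits of the pump. GJA1 encodes the gap junction protein connexin 43, GSTA1 a glutathione S-transferase, and BPIFA2C a secreted protein of the BPI fold family. A cell with at least 5 UMIs of BPIFA2C was called BPIFA2C-rich. Among the other cells, at least 2 UMIs made a cell positive for GJA1 or GSTA1 and 0 UMIs made it negative, and cells with exactly 1 UMI of either gene entered no class. The GJA1- GSTA1- class had 14670 cells (2076, 5930 and 6664 in cows 1, 2 and 3). The GJA1- GSTA1+ class had 2361 cells (275, 428 and 1658), the GJA1+ GSTA1+ class 708 cells (172, 245 and 291) and the BPIFA2C-rich class 583 cells (290, 154 and 139). The GJA1+ GSTA1- class was rare, with 33, 23 and 4 cells, and because sums of fewer than 10 cells were not used it rested on cows 1 and 2. In all, 18382 of the 20728 cells had a class. These classes are ranges of UMI counts and not cell types: 1664 cells lay just outside the GSTA1 limit with 1 UMI, 759 just outside the GJA1 limit, and 173 cells had 3 or 4 UMIs of BPIFA2C against 101 with 5 or 6.

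The libraries held 38912809, 94856658 and 104189434 UMIs over 3369, 7401 and 9958 cells in cows 1, 2 and 3, and 5 to 20 cell barcodes were shared between any pair of cows. Of 5 epithelial markers, KRT5 was found in 99.9% of cells, KRT14 in 99.5%, KRT19 in 68.4%, EPCAM in 50.7% and CDH1 in 23.5%. Median depth moved with class. It was 8493, 10982 and 8871.5 UMIs per cell in GJA1- GSTA1- cells and 17495, 18473 and 13706 in GJA1+ GSTA1+ cells of cows 1, 2 and 3, and the median mitochondrial share was 14.3%, 10.4% and 11.9% against 23.1%, 13.9% and 15.4%. Each subunit was therefore also compared among cells of 10000 to 20000 UMIs, and among cells with a mitochondrial share of 10 to 20%. In the latter setting the GJA1+ GSTA1- class had 5, 18 and 3 cells in cows 1, 2 and 3, so it rested on cow 2 alone. Levels are given as CPM, the UMIs of a gene scaled to 1000000 UMIs of the summed cells of a cow and class after TMM scaling between sums. Where no TMM scaling was used they are called raw CPM. In 3′ counting each captured transcript counts once whatever its length, and capture differs between genes, so levels were compared between classes for the same gene.

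Of the 10 subunits, 8 passed the filter on low counts, and each of these had UMIs in all 5 classes. ATP6V1E1, which forms part of the peripheral stalk, had 12325 UMIs and was seen in 40.9% of cells, as was ATP6V0D1, the collar of the turning c-ring, with 11947 UMIs. ATP6V1A had 5949 UMIs, ATP6V1B2 5112, ATP6V0A1 3189, ATP6V1B1 2289, ATP6V1C1 2147 and ATP6V0A4 1176. The remaining members had few UMIs. ATP6V1C2, the alternative form of subunit C, had 16 UMIs in all, with 0 in cow 1, which allows a level of up to 0.0771 raw CPM. ATP6V0C, which encodes the c-ring proteolipid, had 10 UMIs, whereas ATP6V0B, another proteolipid of the same ring, had 35418. Whether the gene model used for counting bears on the 10 UMIs of ATP6V0C was not tested, so they are not read as its level in these cells. No difference between classes could be measured for ATP6V1C2 or ATP6V0C at this depth.

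ATP6V1B1, the alternative form of subunit B, showed the widest range over classes of the 8 subunits. In GJA1- GSTA1- cells its level was 6.27, 2.80 and 1.92 CPM in cows 1, 2 and 3. It was 16.5 and 7.95 in the GJA1+ GSTA1- cells of cows 1 and 2. In GJA1- GSTA1+ cells the level was 28.9, 18.4 and 8.74 CPM. It reached 65.4, 33.7 and 14.6 in GJA1+ GSTA1+ cells and 79.1, 72.9 and 28.6 in BPIFA2C-rich cells. Within each cow the classes stood in the same order, and cow 1 had the highest and cow 3 the lowest level in all 4 classes measured in 3 cows, so the classes above the lowest overlapped with their neighbours over cows although no cow departed from the order. The GJA1- GSTA1- cells did not overlap with any other class, and the share of all genes without overlap is not given here. The BPIFA2C-rich class held 39.4%, 27.2% and 10.9% of the ATP6V1B1 UMIs of cows 1, 2 and 3 with 8.61%, 2.08% and 1.40% of their cells. The GJA1- GSTA1- class held 13.7%, 23.9% and 25.2% with 61.6%, 80.1% and 66.9% of the cells, so in cow 3 it held more ATP6V1B1 UMIs than the BPIFA2C-rich class. The GJA1- GSTA1+ class held 12.1%, 16.8% and 39.5% with 8.16%, 5.78% and 16.6% of the cells, the largest share of any class in cow 3.

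**Figure D1:**
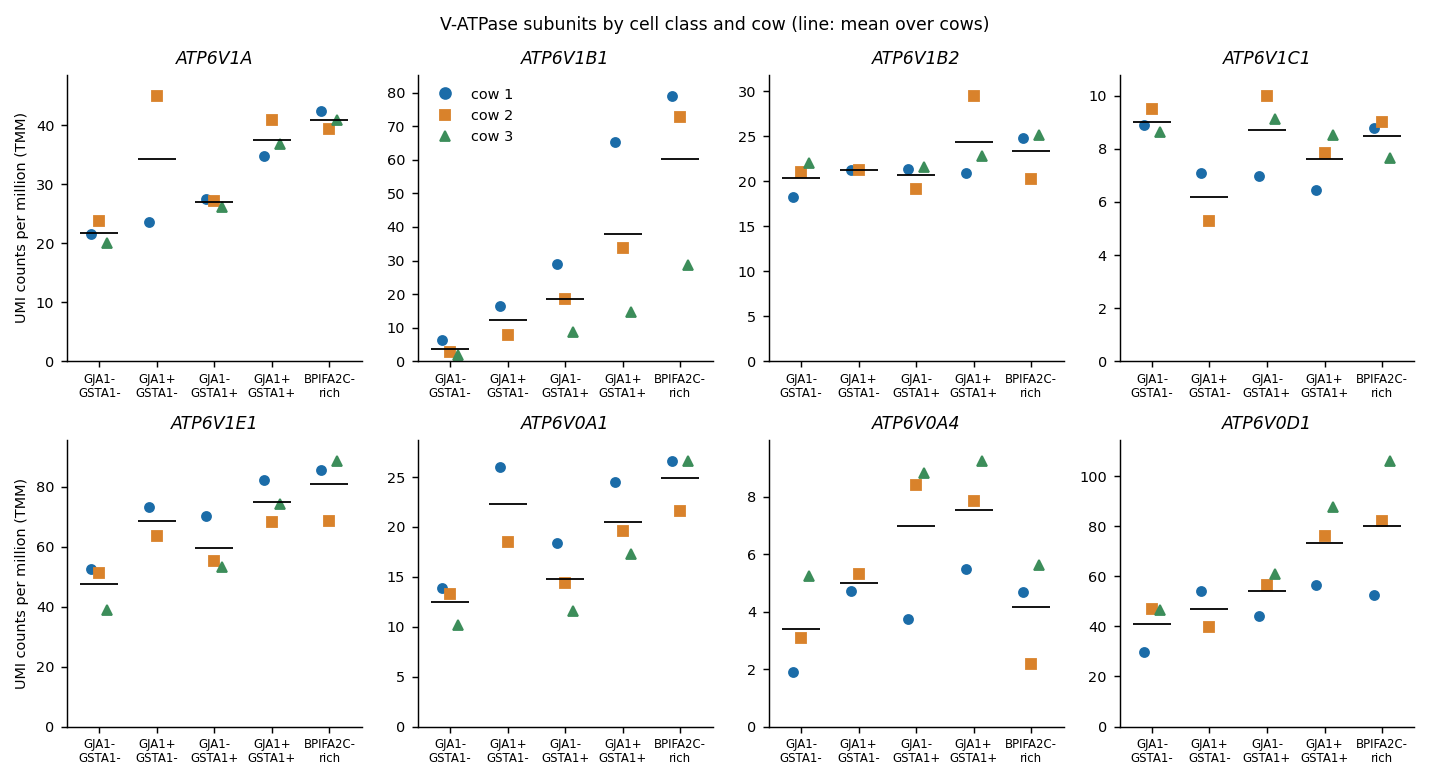
Level of the 8 measurable subunits (y axis, CPM after TMM scaling) in 5 cell classes (x axis), with 1 symbol per cow and a line at the mean over cows. ATP6V1B1 spans 1.92 to 79.1 CPM, ATP6V1B2 stays between 18.2 and 29.5 CPM in every class, and the GJA1+ GSTA1- class has 2 cows.

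ATP6V1B2, the widely used counterpart, had 18.2, 21.0 and 22.0 CPM in GJA1- GSTA1- cells, 20.9, 29.5 and 22.8 in GJA1+ GSTA1+ cells and 24.8, 20.2 and 25.1 in BPIFA2C-rich cells of cows 1, 2 and 3, so the classes overlapped. Taking the UMIs of the 2 subunit B genes together, ATP6V1B1 made up 25.7%, 11.7% and 8.03% in GJA1- GSTA1- cells. Its share was 57.4%, 49.0% and 28.8% in GJA1- GSTA1+ cells and 75.7%, 53.3% and 39.0% in GJA1+ GSTA1+ cells. In BPIFA2C-rich cells it was 76.1%, 78.3% and 53.3%, which made ATP6V1B1 the more counted B gene there in all 3 cows. Summed over cows, the share went from 12.2% of 3683 UMIs (95% exact binomial interval 11.2 to 13.3%) to 74.1% of 895 UMIs (71.1 to 76.9%), intervals that cover counting error only. The shares are given without a test, since a two-sided exact permutation test of 3 paired differences cannot go below p = 0.25.

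The genes of subunit a are ATP6V0A1, ATP6V0A2, TCIRG1 and ATP6V0A4, and ATP6V0A4 made up 6.01%, 9.86% and 17.4% of their UMIs in GJA1- GSTA1- cells of cows 1, 2 and 3. Its share was 10.3%, 21.8% and 27.1% in GJA1- GSTA1+ cells, 11.1%, 17.7% and 22.5% in GJA1+ GSTA1+ cells and 9.45%, 5.77% and 12.2% in BPIFA2C-rich cells. The share of ATP6V0A4 was thus lower in BPIFA2C-rich than in GJA1+ GSTA1+ cells in every cow, from only 24, 6 and 11 UMIs in BPIFA2C-rich cells. That of ATP6V1B1 was higher in cows 2 and 3 and nearly equal in cow 1, at 76.1% against 75.7%. ATP6V0A1 had the largest share of subunit a UMIs in BPIFA2C-rich cells, with 53.5%, 57.7% and 57.8%, against 43.7%, 42.6% and 33.8% in GJA1- GSTA1- cells. TCIRG1, which encodes the a3 form known from osteoclasts, went the other way, from 33.2%, 34.7% and 34.6% to 19.3%, 18.3% and 18.9%. For subunit d, ATP6V0D2, a form with restricted expression, had 1 UMI in the whole series beside the 11947 of ATP6V0D1.

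**Figure D2:**
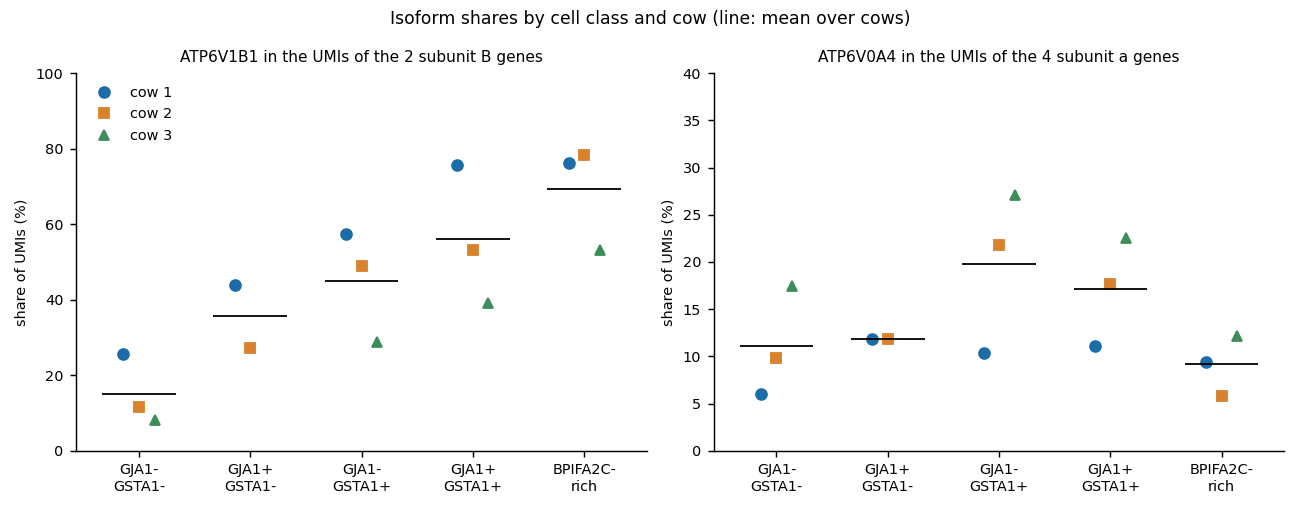
Share of ATP6V1B1 in the UMIs of the subunit B genes (left) and of ATP6V0A4 in those of the subunit a genes (right), in percent (y axes, with different ranges), in 5 cell classes (x axis), with 1 symbol per cow and a line at the mean over cows; the 4 GJA1+ GSTA1- cells of cow 3 are left out. Among the sums shown, the ATP6V1B1 share is highest in BPIFA2C-rich cells in each cow (53.3 to 78.3%), whereas the ATP6V0A4 share there is 5.77 to 12.2%.

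The GJA1+ GSTA1+ cells were then tested against the GJA1- GSTA1- cells with the edgeR quasi-likelihood test on UMI sums, with the cow as a block and Benjamini-Hochberg adjustment over all genes tested. Genes were called where the adjusted p was below 0.05 and the log2 fold change larger in size than 0.25. Of the 8 subunits tested, 6 were called higher and 0 lower. Of all 9992 genes tested, 20.9% were called higher and 21.6% lower, so a call was common in this contrast. The median log2 fold change was 0.75 over the 8 subunits and -0.04 over all genes tested. ATP6V1B1 had the largest log2 fold change of the 8 and rose by a log2 fold change of 3.35 (SE 0.17, adjusted p = 8.7e-12), which is 10.2-fold, and it was higher in 3 of 3 cows. From these same cells the authors had listed ATP6V1B1 among the genes uniquely high in a cell cluster, their TM4SF1+ cg-like spinous cells. They also reported GJA1 and GSTA1 as high in that cluster, so this rise could be foreseen and is no independent evidence.

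Among the other V1 subunits, ATP6V1A, the catalytic subunit, had 21.5, 23.7 and 20.0 CPM in GJA1- GSTA1- cells and 34.8, 40.9 and 36.9 in GJA1+ GSTA1+ cells of cows 1, 2 and 3. The classes did not overlap, and its log2 fold change was 0.79 (SE 0.10, adjusted p = 2.77e-06). ATP6V1E1 had 52.5, 51.1 and 38.8 CPM against 82.2, 68.1 and 74.1, again with no overlap, and a log2 fold change of 0.66 (SE 0.11, adjusted p = 3.97e-05). The share of all genes without overlap is not given here, so the lack of overlap is not read as particular to these subunits. ATP6V1B2 was not called, at 0.27 (SE 0.12, adjusted p = 0.0879). ATP6V1C1, which takes part in the reversible assembly of the pump, was not called either. It had 8.90, 9.52 and 8.62 CPM in GJA1- GSTA1- cells and 6.45, 7.85 and 8.51 in GJA1+ GSTA1+ cells, lower in each cow, with a log2 fold change of -0.23 (SE 0.16, adjusted p = 0.259).

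All 3 measurable V0 members were called higher in the GJA1+ GSTA1+ cells. ATP6V0D1 had 29.9, 46.9 and 46.4 CPM in GJA1- GSTA1- cells and 56.4, 76.2 and 87.5 in GJA1+ GSTA1+ cells, a log2 fold change of 0.84 (SE 0.10, adjusted p = 1.84e-06). ATP6V0A1 had 13.9, 13.3 and 10.2 CPM against 24.5, 19.6 and 17.3, a change of 0.71 (SE 0.13, adjusted p = 0.000156). ATP6V0A4 had 1.91, 3.07 and 5.25 CPM against 5.48, 7.85 and 9.24, a change of 1.15 (SE 0.25, adjusted p = 0.000755). None of these 3 genes overlapped between the classes, and the share of all genes without overlap is not given here. ATP6V0A4 came close, at 5.25 CPM in GJA1- GSTA1- cells of cow 3 and 5.48 in GJA1+ GSTA1+ cells of cow 1. The cows ranked differently for the 2 renal-type isoforms: cow 1 had the highest ATP6V1B1 and the lowest ATP6V0A4 level in both of these classes.

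These calls were kept when any 1 cow was left out, and with cells of a mitochondrial share of 10 to 20%. Among cells of 10000 to 20000 UMIs, ATP6V0A4 lost its call (0.65, adjusted p = 0.0893), while ATP6V1B1, ATP6V1A, ATP6V1E1, ATP6V0A1 and ATP6V0D1 kept theirs. When each cell was thinned to 3000 UMIs and its class was kept, 5 of 7 subunits with enough counts were called higher, where 17.9% of all genes were called higher and 15.7% lower, and ATP6V0A1 was not called (0.25, adjusted p = 0.532). When the cells were thinned first and put in classes anew by their thinned UMIs, so that depth and class membership changed together, 3 of 6 were called higher, beside 16.8% higher and 15.9% lower of all genes, and ATP6V1A (0.47, adjusted p = 0.142) and ATP6V0A1 (0.15, adjusted p = 0.77) were not.

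BPIFA2C-rich cells against GJA1- GSTA1- cells gave 5 of 8 subunits called higher and 0 lower, where 21.9% of all genes were called higher and 22.4% lower. These comparisons share the GJA1- GSTA1- sums, so their values are set side by side without a measure of likeness. ATP6V1B1 rose by a log2 fold change of 4.08 (SE 0.16, adjusted p = 3.03e-13), or 16.9-fold, against 3.35 above. ATP6V1A was at 42.4, 39.3 and 40.9 CPM in cows 1, 2 and 3, a change of 0.92 (SE 0.11, adjusted p = 5.78e-07). ATP6V0A1 was at 26.6, 21.6 and 26.6 CPM, a change of 0.96 (SE 0.13, adjusted p = 5.63e-06), and ATP6V0D1 at 52.4, 82.2 and 106 CPM, a change of 0.93 (SE 0.11, adjusted p = 5.84e-07). ATP6V1E1 was at 85.6, 68.5 and 88.5 CPM, a change of 0.76 (SE 0.11, adjusted p = 1.06e-05). None of these 5 genes overlapped with the GJA1- GSTA1- cells, and the share of all genes without overlap is not given here. ATP6V0A4, at 4.69, 2.16 and 5.63 CPM, did overlap and was not called (0.45, SE 0.31, adjusted p = 0.25), and neither were ATP6V1B2 (0.21, adjusted p = 0.197) and ATP6V1C1 (-0.04, adjusted p = 0.87). The 5 calls were kept after thinning with the classes kept and without cells that held a UMI of MKI67 or TOP2A. ATP6V1A lost its call where the cells were thinned and then put in classes anew (0.57, adjusted p = 0.0886), and ATP6V0A1 where the BPIFA2C-rich cells were limited to those with a mitochondrial share under 2% (1.06, adjusted p = 0.147).

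**Figure D3:**
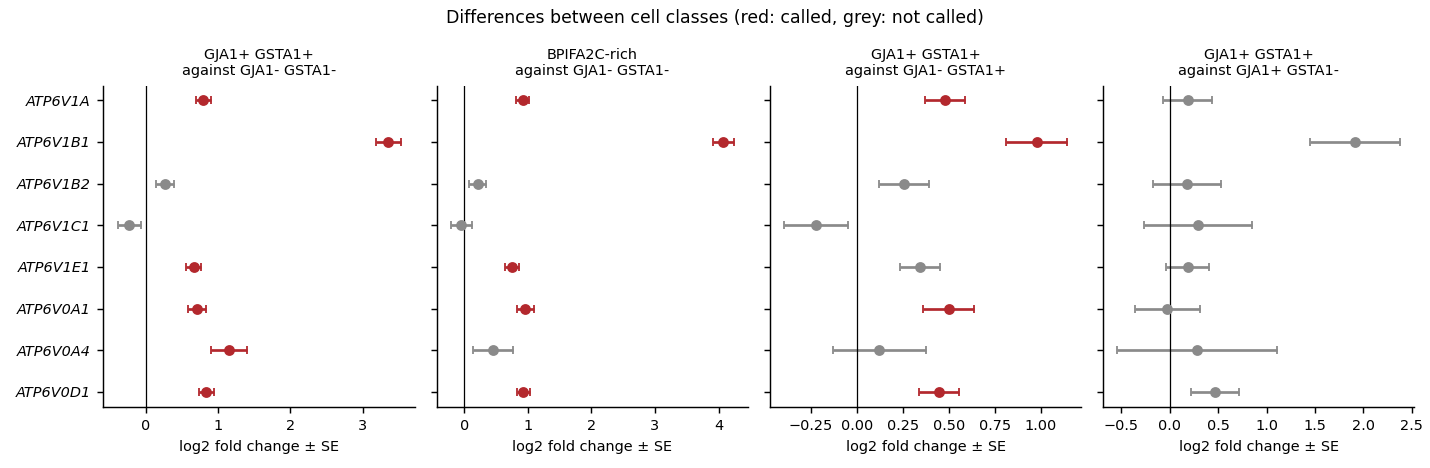
Log2 fold change with SE (x axes, with different ranges) of the 8 measurable subunits (rows) in 4 comparisons of cell classes, in red where called and in grey where not. ATP6V1B1 lies at 3.35 and 4.08 in the comparisons with GJA1- GSTA1- cells, the other called subunits between 0.66 and 1.15.

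BPIFA2C-rich and GJA1+ GSTA1+ cells were also compared directly, where 0.921% of all genes were called in either direction. ATP6V1B1 was the 1 subunit called, higher in BPIFA2C-rich cells by 0.72 (SE 0.16, adjusted p = 0.0308) and in 3 of 3 cows. This call was lost without cow 2 (0.49, adjusted p = 0.416) or without cow 3 (0.64, adjusted p = 0.103), among cells of 10000 to 20000 UMIs (0.36, adjusted p = 0.816) and after thinning with the classes kept (0.56, adjusted p = 0.729). It was kept without cells that held a UMI of MKI67 or TOP2A. ATP6V0A4 was lower in BPIFA2C-rich cells in 3 of 3 cows, at a log2 fold change of -0.70 (SE 0.33), but was not called (adjusted p = 0.624). The other 6 subunits differed by -0.05 to 0.26. In cows 1, 2 and 3, BPIFA2C-rich cells held GJA1 at 647, 667 and 501 CPM, against 413, 331 and 358 in GJA1+ GSTA1+ cells. GSTA1 was at 648, 975 and 2470 against 572, 694 and 2200 CPM. The comparison did not hold these genes equal, so it does not set BPIFA2C apart from them. Some BPIFA2C-rich cells, 35, 5 and 20 in cows 1, 2 and 3, had a mitochondrial share under 2%. ATP6V1B1 stood 0.69 higher without these cells (adjusted p = 0.0801), and with these cells alone, where the 5 cells of cow 2 were too few for a sum and the values rest on cows 1 and 3, it stood 0.99 higher (adjusted p = 0.0524). In these cells ATP6V1E1 (1.2, adjusted p = 0.000646) and ATP6V0D1 (1.38, adjusted p = 0.00016) were called higher than in GJA1+ GSTA1+ cells. The 0.921% is of all BPIFA2C-rich cells, and the share of all genes called with the cells under 2% alone is not given here.

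The parts that go with GJA1 and with GSTA1 were taken separately. Within GSTA1+ cells, those with GJA1 had 4 of 8 subunits called higher and 0 lower, where 4.65% of all genes were called higher. These were ATP6V1B1 (0.98, SE 0.17, adjusted p = 0.00104), ATP6V0A1 (0.50, SE 0.14, adjusted p = 0.031), ATP6V1A (0.48, SE 0.11, adjusted p = 0.00839) and ATP6V0D1 (0.45, SE 0.11, adjusted p = 0.0139). ATP6V1E1 fell just short (0.34, SE 0.11, adjusted p = 0.0589), and ATP6V0A4 was at 0.12 (SE 0.25, adjusted p = 0.86). ATP6V1B1 alone was called when cow 2 or cow 3 was left out. Without cow 2, ATP6V1A, ATP6V0A1 and ATP6V0D1 were at 0.42, 0.527 and 0.449, and without cow 3 at 0.483, 0.435 and 0.398. ATP6V0A1 was not called without cow 1 (0.51, adjusted p = 0.154), with a limit of 3 UMIs (0.51, adjusted p = 0.0661) or among cells with a mitochondrial share of 10 to 20% (0.51, adjusted p = 0.0654). ATP6V1E1 was called without the filter on low counts (0.32, adjusted p = 0.035), with a limit of 1 UMI (0.35, adjusted p = 0.0181) and without cells that held a UMI of MKI67 or TOP2A (0.37, adjusted p = 0.0496). After thinning to 3000 UMIs with the classes kept, ATP6V1B1 was the 1 subunit called of 7 tested, where 2.87% of all genes were called higher and 1.57% lower. ATP6V1A was then at 0.425 (adjusted p = 0.378), ATP6V0A1 at 0.457 (adjusted p = 0.532) and ATP6V0D1 at 0.278 (adjusted p = 0.452). Where the cells were thinned and put in classes anew, 0 of 6 were called, beside 2.57% higher and 1.85% lower of all genes, ATP6V1B1 being at 1.04 (adjusted p = 0.0553).

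Within GJA1+ cells, the difference that goes with GSTA1 rested on 2 cows. By edgeR 0 of 8 subunits were called, 1 had an unadjusted p under 0.05 and DESeq2 also called 0. Calls were rare there, at 0.02% of all genes, namely MT2A and BREH1, which are named because they were the 2 genes called. ATP6V1B1 was at 16.5 and 7.95 CPM in GJA1+ GSTA1- cells of cows 1 and 2 against 65.4 and 33.7 in GJA1+ GSTA1+ cells, a log2 fold change of 1.91 (SE 0.47, adjusted p = 0.218). The GJA1+ GSTA1- value came from 7 and 3 UMIs. Without the filter on low counts ATP6V1B1 was called at the same 1.91 (adjusted p = 0.00039), where 61 of all genes were called. The other 7 subunits differed by -0.03 to 0.47. With a limit of 1 UMI in place of 2, which adds cells to this class, ATP6V1B1 (2.13, adjusted p = 1.09e-05), ATP6V0D1 (0.68, adjusted p = 0.000933) and ATP6V1E1 (0.41, adjusted p = 0.042) were called. The GJA1+ GSTA1- class then had 177, 121 and 69 cells in cows 1, 2 and 3. The 0.02% is of the limit of 2 UMIs, and the share of all genes called with 1 UMI is not given here. Whether the difference with GSTA1 was itself different in GJA1+ cells was tested as an interaction. By edgeR 0 of 8 subunits were called, 0 had an unadjusted p under 0.05 and DESeq2 called 0, where 2.39% of all genes were called. For ATP6V1B1 the interaction was -0.46 (SE 0.61, adjusted p = 0.815).

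The level of ATP6V1B1 was also laid out over finer steps of the 3 class genes, as a description. In cells with 0, 1, 2 to 4, 5 to 9 and 10 or more UMIs of GSTA1, cow 1 had ATP6V1B1 at 8.25, 20.7, 32.9, 50.0 and 89.8 raw CPM. Cow 2 had 2.62, 6.92, 11.8, 26.8 and 50.7 over the same steps, and cow 3 had 2.12, 3.19, 7.28, 9.10 and 14.1. The level stepped up at each step in each cow. Over the steps of GJA1 it likewise went from 12.2, 4.14 and 3.9 at 0 UMIs to 94.3, 62.1 and 30.0 at 10 or more in cows 1, 2 and 3. Over BPIFA2C it went from 15.1, 5.24 and 4.26 at 0 UMIs to 88.7, 87.7 and 35.3 at 20 or more. ATP6V1B2 stayed between 13.5 and 28.0 raw CPM at every step of the 3 genes. ATP6V0A4 went from 2.26, 2.84 and 5.67 raw CPM at 0 UMIs of GSTA1 to 5.79, 6.58 and 8.42 at 10 or more in cows 1, 2 and 3, stepping up at each step in cow 1 alone. Over GJA1 it went from 2.43, 3.39 and 6.81 at 0 UMIs to 6.18, 3.67 and 2.79 at 10 or more, up in cow 1, little changed in cow 2 and down in cow 3, while at 2 to 4 UMIs it was at 4.76, 6.28 and 9.86, above the value at 0 UMIs in each cow. Over BPIFA2C it went from 2.60, 3.53 and 6.92 raw CPM at 0 UMIs to 4.67, 0 and 6.08 at 20 or more. That was up in cow 1 and down in cows 2 and 3, while at 1 to 4 UMIs it was at 3.75, 5.09 and 7.06. The group of 20 or more had 119, 57 and 50 cells, too few for a count of 0 in cow 2 to show absence. Cells with more UMIs of a class gene were also deeper cells, and the part of depth in these steps was not tested.

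**Figure D4:**
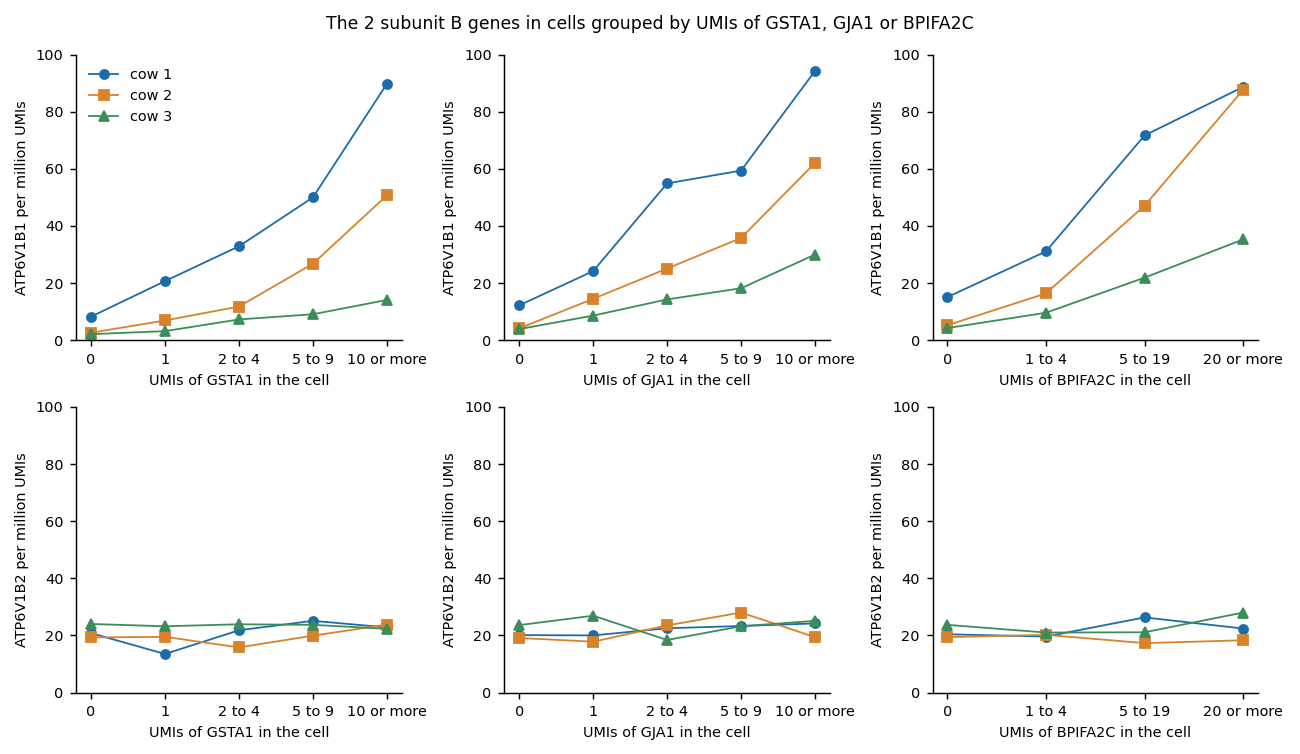
ATP6V1B1 (top row) and ATP6V1B2 (bottom row) in raw CPM (y axes) in cells grouped by their UMIs of GSTA1, GJA1 or BPIFA2C (x axes), with 1 line per cow. ATP6V1B1 climbs in each cow, to 14.1 to 94.3 raw CPM in the last group, while ATP6V1B2 stays between 13.5 and 28.0.

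In single cells ATP6V1B1 was sparse. At least 1 UMI was found in 55.2%, 35.5% and 15.8% of GJA1+ GSTA1+ cells and in 54.5%, 50.0% and 25.9% of BPIFA2C-rich cells of cows 1, 2 and 3, against 5.35%, 2.58% and 1.74% of GJA1- GSTA1- cells. GJA1- GSTA1+ cells lay between, at 28.4%, 21.3% and 10.6%. The median depth of BPIFA2C-rich cells was 17747.5, 19355 and 14345 UMIs, and GJA1- GSTA1- cells were shallower than GJA1+ GSTA1+ and BPIFA2C-rich cells in each cow. No rumen cell type known to lack the gene was at hand as a background, and the GJA1- GSTA1- share serves as the lowest seen. After thinning each cell to 3000 UMIs, which left out 200, 52 and 107 GJA1- GSTA1- cells, 4, 2 and 3 GJA1+ GSTA1+ cells and 21, 2 and 6 BPIFA2C-rich cells, the shares were 17.9%, 7.82% and 4.17% in GJA1+ GSTA1+ cells, 17.1%, 15.8% and 6.77% in BPIFA2C-rich cells and 1.55%, 0.663% and 0.519% in GJA1- GSTA1- cells. The GJA1+ GSTA1+ and BPIFA2C-rich cells thus stayed above the GJA1- GSTA1- cells in each cow at equal depth, whereas of the thinned GJA1+ GSTA1- cells 1 of 27, 0 of 22 and 1 of 4 in cows 1, 2 and 3 had an ATP6V1B1 UMI, too few to place that class.

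Whether other subunits follow ATP6V1B1 from cell to cell within a class was asked by comparing cells with and without an ATP6V1B1 UMI. Among GJA1+ GSTA1+ cells 95, 87 and 46 cells had such a UMI in cows 1, 2 and 3, of which 44, 55 and 34 had exactly 1, and 77, 158 and 245 had none. Of the other 7 measurable members, 0 were called by edgeR, 0 had an unadjusted p under 0.05 and DESeq2 called 0. Of all 8589 genes tested, 0% were called by edgeR, with 427 at an unadjusted p under 0.05, and DESeq2 called 1 gene, MT2A. ATP6V1A had 33.1, 39.1 and 45.1 CPM in cells with ATP6V1B1 and 37.4, 40.8 and 34.4 in cells without, a log2 fold change of 0.01 (SE 0.17, adjusted p = 1). ATP6V1B2 was at 23.7, 25.9 and 19.9 against 17.1, 31.0 and 23.0 CPM, a change of -0.04 (SE 0.20, adjusted p = 1). The largest difference was in ATP6V0A1, at 27.6, 21.1 and 22.6 against 20.2, 18.2 and 15.7 CPM, higher in 3 of 3 cows but not called (0.37, SE 0.24, adjusted p = 1). With many positive cells at 1 UMI, a cell without one may still express the gene. Differences larger than the SE given can also be missed at this depth, as ATP6V0A1 at 0.37 with an SE of 0.24 was not called.

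Among GJA1- GSTA1- cells 111, 153 and 116 cells had an ATP6V1B1 UMI. By edgeR 0 of 7 members were called, 0 had an unadjusted p under 0.05 and DESeq2 called 0, while 8.95% of all genes were called. ATP6V0A1 was lower in cells with ATP6V1B1 in 2 of 3 cows (4.41, 13.4 and 8.04 against 14.9, 13.1 and 10.2 CPM, a change of -0.45, SE 0.24, adjusted p = 0.262). The difference between the classes in this comparison was tested for each member, and 0 were called by edgeR or DESeq2, where edgeR called 1.02% of all genes. ATP6V0A1 had the only unadjusted p under 0.05 (difference 0.82, SE 0.34, unadjusted p = 0.0201, adjusted p = 0.305). The cells with an ATP6V1B1 UMI were deeper, with medians of 13844, 17014 and 11915 UMIs against 8328, 10848 and 8832.

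**Figure D5:**
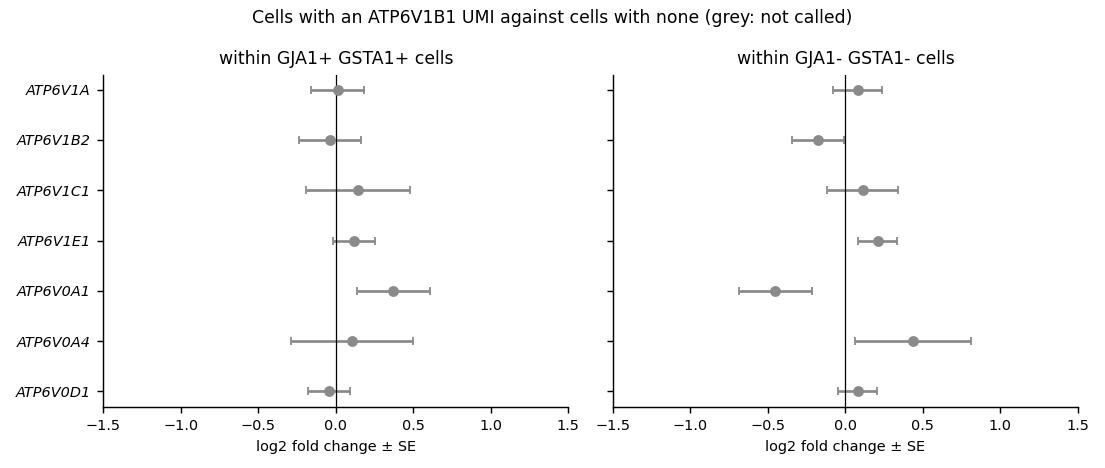
Log2 fold change with SE (x axis) of 7 measurable subunits (rows) between cells with and without an ATP6V1B1 UMI, within GJA1+ GSTA1+ cells (left) and GJA1- GSTA1- cells (right). No subunit was called, and the values run from -0.45 to 0.44.

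Across single cells of 1 cow and 1 class, the correlation of log-normalized ATP6V1B1 with each other member was weak. It lay between -0.09 and 0.13 in GJA1+ GSTA1+ cells (172 to 291 cells per cow) and between -0.05 and 0.18 in BPIFA2C-rich cells (139 to 290 cells). In such sparse counts these values are no finding.

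Across the 14 sums of cow and class, with the cow mean taken out of each gene, the members closest to ATP6V1B1 on the log2(CPM + 1) scale were ATP6V0D1 (Pearson r = 0.87, rank 337 of 9991 genes), ATP6V1E1 (0.82, rank 607), ATP6V1A (0.79, rank 785) and ATP6V0A1 (0.77, rank 854). ATP6V1B2 was at 0.45, ATP6V0A4 at 0.28 and ATP6V1C1 at -0.06, beside a median of 0.02 over all genes. The other subunits of the pump ran from 0.931 for ATP6V1F (rank 78) to -0.305 for TCIRG1 (rank 7136). ATP6V0B was at 0.796 (rank 731), ATP6AP2 at 0.774 and ATP6V0E1 at 0.722. ATP6V0A2, ATP6V1G1, ATP6V1D, ATP6V1H and ATP6AP1 were at 0.452, 0.434, 0.427, 0.306 and 0.299, and RNASEK at -0.211. The points share cows and libraries, and 198 genes had an r above 0.9. The genes most like ATP6V1B1 were PCBD2 (0.986), BREH1 (0.985), CDA (0.983), SMIM5 (0.978), SORD (0.974), NECTIN4 (0.974), SMIM20 (0.972) and MBD2 (0.971). PCBD2 ran from 109, 147 and 166 CPM in GJA1- GSTA1- cells to 190, 264 and 291 in BPIFA2C-rich cells of cows 1, 2 and 3, and NECTIN4, an adhesion receptor, from 2.27, 2.80 and 1.39 to 18.4, 23.8 and 19.4.

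The other subunit genes of the pump were read from a list of 16 genes, of which 15 were in the table and 11 were tested. In GJA1+ GSTA1+ against GJA1- GSTA1- cells 6 of 11 were called higher and 0 lower, with a median log2 fold change of 0.30, where 20.9% of all genes were called higher and 21.6% lower. These were ATP6V1F of the central stalk (0.67, SE 0.08, adjusted p = 8.33e-07), ATP6V0B of the proteolipid ring (0.57, SE 0.09, adjusted p = 2.99e-05), ATP6V1H, a regulator of V1 (0.54, SE 0.17, adjusted p = 0.0132), the accessory proteins ATP6AP2 (0.38, SE 0.11, adjusted p = 0.00896) and ATP6AP1 (0.28, SE 0.10, adjusted p = 0.0247), and ATP6V0E1 (0.30, SE 0.08, adjusted p = 0.0045). ATP6V1D (0.32, adjusted p = 0.0716), ATP6V1G1 (0.19, adjusted p = 0.166), ATP6V0A2 (0.21, adjusted p = 0.493), TCIRG1 (0.12, adjusted p = 0.61) and RNASEK (-0.48, adjusted p = 0.508) were not called. With the fold limit on the natural log scale 4 of 11 were called, ATP6AP1 and ATP6V0E1 being under it. BPIFA2C-rich against GJA1- GSTA1- cells gave 6 of 11 higher and 0 lower by edgeR and 4 of 11 by DESeq2, where edgeR called 21.9% of all genes higher and 22.4% lower. Among the 6 were ATP6V1F (0.87, SE 0.08), ATP6AP2 (0.74, SE 0.11) and ATP6V0A2 (0.63, SE 0.23).

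Genes that assemble or control the pump gave 5 of 14 tested higher and 1 lower in GJA1+ GSTA1+ against GJA1- GSTA1- cells, with a median of 0.09, beside the same 20.9% and 21.6% of all genes. VMA21, an assembly factor of the V0 part, was at 26.6, 25.5 and 18.8 CPM in GJA1- GSTA1- cells and 44.2, 41.1 and 41.3 in GJA1+ GSTA1+ cells of cows 1, 2 and 3 (log2 fold change 0.85, SE 0.12). The assembly factors TMEM199 (0.68, SE 0.17) and CCDC115 (0.53, SE 0.14) and the lysosomal transcription factor TFEB (0.62, SE 0.17) were also called higher. So was DMXL2 of the rabconnectin complex (2.65, SE 0.45), from only 130 UMIs in the series. At 0.267, 0.205 and 0.385 CPM in GJA1- GSTA1- cells, DMXL2 could pass the filter on low counts only through classes where it was high. Its call is therefore not read as support. TBC1D24 was called lower (-1.04, SE 0.36). FOXI1, a transcription factor of intercalated cells and ionocytes, had 0 UMIs, which allows up to 0.0126 raw CPM. The list of markers of those cells held 10 genes, of which 7 were in the table with 270 UMIs in all, and their sum lay at 0.879 to 1.84 raw CPM in GJA1- GSTA1- cells, 0.471 to 1.33 in GJA1+ GSTA1+ cells and 0.317 to 1.46 in BPIFA2C-rich cells.

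Lysosomal genes, another place where the pump is used, gave 6 of 24 tested higher and 3 lower in GJA1+ GSTA1+ against GJA1- GSTA1- cells, with a median of 0.08, again beside 20.9% and 21.6% of all genes. PSAP (1.14, SE 0.08), CTSD (0.94, SE 0.08), GUSB (0.75, SE 0.14), CTSA (0.75, SE 0.11) and CTSZ (0.71, SE 0.15) rose. In BPIFA2C-rich against GJA1- GSTA1- cells 11 of 24 were higher and 2 lower, beside 21.9% and 22.4% of all genes. Other acid-base genes gave 7 of 13 tested higher and 3 lower in GJA1+ GSTA1+ against GJA1- GSTA1- cells, with a median of 0.39. The proton exchangers SLC9A2 (4.52, SE 0.25) and SLC9A3 (2.14, SE 0.40), the carbonic anhydrase CA1 (2.22, SE 0.11), the monocarboxylate transporter SLC16A1 (1.80, SE 0.09) and the anion exchanger family member SLC4A9 (1.2, SE 0.15) rose, and the carbonic anhydrase CA13 fell by 1.16 (SE 0.24). SLC9A2 was called from 508 UMIs, at 0.623, 0.299 and 0.311 CPM in GJA1- GSTA1- cells and 12.2, 8.54 and 7.05 in GJA1+ GSTA1+ cells of cows 1, 2 and 3. At these levels it could not pass the filter on low counts through GJA1- GSTA1- cells, so its call is not read as support.

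Markers of other cells were read beside these results. Fibroblast markers had 41 UMIs in all, melanocyte markers 96 and smooth muscle markers 222, and none of their genes passed the filter. The sum of 7 immune markers, of which CD14 gave 5013 of 6185 UMIs and 1 gene had 0, was 16.0 to 40.6 raw CPM in GJA1- GSTA1- cells, 8.96 to 23.0 in GJA1+ GSTA1+ cells and 17.9 to 29.8 in BPIFA2C-rich cells, and CD14 was called lower in both classes. Of 589 UMIs of endothelial markers VWF gave 563, and their sum was 1.79 to 3.23 raw CPM in GJA1- GSTA1- cells, 3.67 to 4.71 in GJA1+ GSTA1+ cells and 3.80 to 4.38 in BPIFA2C-rich cells. VWF, the 1 of 4 endothelial genes that was tested, was called higher in both classes (1.06 and 1.03). The other endothelial genes, PECAM1, CDH5 and CLDN5, had 4, 3 and 19 UMIs in all and 0 in the GJA1+ GSTA1+ and BPIFA2C-rich cells. Of the 5 epithelial markers KRT19 was called lower in both classes (-0.42, lower in 2 of 3 cows, and -0.35, lower in 3 of 3). CDH1, KRT5, KRT14 and EPCAM were called higher in GJA1+ GSTA1+ cells, and CDH1 alone in BPIFA2C-rich cells. Of 6 cell cycle genes 0 were called in GJA1+ GSTA1+ cells, and 4 were called higher in BPIFA2C-rich cells, where 21.9% of all genes were. CD14, VWF and the epithelial markers are named after their values were seen. Without the cells that held a UMI of MKI67 or TOP2A, 6 of 8 subunits were called in GJA1+ GSTA1+ against GJA1- GSTA1- cells, where 22.1% of all genes were called higher and 20.4% lower. In BPIFA2C-rich against GJA1- GSTA1- cells 5 of 8 were called, beside 23.5% and 21.0% of all genes. In BPIFA2C-rich against GJA1+ GSTA1+ cells 1 of 8 was called, beside 0.964% higher and 0.189% lower.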

How the data were processed

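Rumen cells of 3 cows were measured with Chromium Single Cell 3′ v3 chemistry. The authors aligned reads to ARS-UCD1.2 (spelled ARS-USD1.2 in their methods) with Cell Ranger 3.1.0, also named in the submitters' processing notes, filtered cells on genes, UMIs and mitochondrial share, and identified doublets with DoubletFinder. No further doublet removal was done. The deposited matrix holds UMI counts per gene and cell, not normalized. The deposited atlas table holds natural log values, ln(1 + UMIs per 10000), and matched the counts within 1e-06 at every value, which gave the gene names. Barcode suffixes gave the cow. Depth was 38912809 to 104189434 UMIs per cow, and precision rests on 3 cows.

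UMIs were summed per cow and class with at least 10 cells (14 sums, since 1 had 4 cells, and 26 for cells with and without ATP6V1B1). Genes passing filterByExpr (9995 and 8593) were fitted in edgeR 4.0.16 (R 4.3.3) with TMM, quasi-likelihood tests and the cow as a block, since classes are cells of the same animals. GJA1, GSTA1 and BPIFA2C, and ATP6V1B1 where it set cells apart, were left out of the tests. The fold limit of 0.25 was set on the log2 scale, which is looser than the authors' limit of the same number on Seurat's average log fold change, a natural log in their version. Alternatives were DESeq2 1.42.0, other scaling, filters, class limits, thinning and leaving out cows. Scripts were tested on simulated data. Python 3.11.15 was used for other steps.

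Named genes were the members, the class genes, the 8 genes most like ATP6V1B1, any gene of the list of other pump subunits, and from each other list up to 6 called genes with the largest change. A gene that this rule would name is not reported here. Members and lists were chosen with earlier results of these data known. P-values measure how far the differences between classes vary from cow to cow, with the level of each cow taken out as a block. No sequence or coordinate was used, as the reference table is of another assembly.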

Additional observations from a re-analysis of the deposited data

How the results depend on the processing

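Thinning to 3000 UMIs was done before cells were put in classes, so depth and class membership changed together, and again with the classes kept. Counts of called subunits changed by more than 1.5 times in these settings. The share of all genes called is given in this report for only some of them. In GJA1+ GSTA1+ against GJA1- GSTA1- cells 6 of 8 were called, and 3 of 6 after thinning with new classes. Against GJA1+ GSTA1- cells 0 were called, 1 without the filter on low counts (ATP6V1B1), 3 with a limit of 1 UMI and 1 after thinning with new classes (ATP6V0D1). Against GJA1- GSTA1+ cells 4 were called, 0 after thinning with new classes and 1 with the classes kept. In BPIFA2C-rich against GJA1+ GSTA1+ cells 1 was called, and 0 without TMM, with a limit of 3 UMIs, after either thinning, without BPIFA2C-rich cells under a mitochondrial share of 2%, among cells of 10000 to 20000 UMIs and among cells of a mitochondrial share of 10 to 20%. ATP6V1B1, at 0.72 as reported, was at 0.69 without TMM, 0.58 with 3 UMIs, 0.21 and 0.56 after thinning with new and kept classes, 0.69 without the cells under 2%, 0.36 at 10000 to 20000 UMIs and 0.76 at a mitochondrial share of 10 to 20%. With only the BPIFA2C-rich cells under 2%, 2 were called. With the fold limit of 0.25 on the natural log scale each comparison kept its count of members called. The count of other pump subunits fell in GJA1+ GSTA1+ against GJA1- GSTA1- cells, as given above. Leaving out 1 cow gave 1 to 3 against GJA1- GSTA1+ cells, 0 to 1 in BPIFA2C-rich against GJA1+ GSTA1+ cells, and 6 and 5 in the comparisons with GJA1- GSTA1- cells. Without cow 1 or cow 2, and among cells of a mitochondrial share of 10 to 20%, the GJA1+ GSTA1- class has a lone sum, which is assumed to vary like the others. The causes were not tested.

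The pairing of classes within cows is that of the animals. Without the cow as a replicate block, 4 subunits were called in GJA1+ GSTA1+ against GJA1- GSTA1- cells. There ATP6V0A4 (1.13, adjusted p = 0.0972) and ATP6V0D1 (0.84, adjusted p = 0.0601) lost their calls. Without the block 0 were called against GJA1- GSTA1+ cells and 0 in BPIFA2C-rich against GJA1+ GSTA1+ cells, and no other count changed. The share of all genes called without the block is not given here.

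Of 982 log2 fold changes of single subunits compared, 933 kept their side of the threshold, 39 lost a call and 10 gained one, and no called value changed direction. Without TMM the median log2 fold change of all genes in GJA1+ GSTA1+ against GJA1- GSTA1- cells moved from -0.04 to -0.15 and the higher share of calls from 49.2% to 37.0%, with the same number of subunits called. In BPIFA2C-rich against GJA1- GSTA1- cells that share moved from 49.5% to 33.7%, and in GJA1+ GSTA1+ against GJA1- GSTA1+ cells from 54.1% to 43.3%. Among GJA1- GSTA1- cells with and without ATP6V1B1 it was 58.9%, and 72.8% with DESeq2, 43.7% without TMM and 38.7% without the filter, and for the interaction 43.1%, 29.8%, 30.5% and 56.2%. In the first comparison the share without the filter was 39.8%. Over all genes, calls against GJA1+ GSTA1- cells numbered 2, with 13 by DESeq2, 2 (both lower, where the reported calls were both higher) without TMM and 61 without the filter. In BPIFA2C-rich against GJA1+ GSTA1+ cells 92 were called and 211 without the filter, for the interaction 239, 379 by DESeq2 and 386 without the filter, and for the difference between the ATP6V1B1 comparisons 88 and 196 by DESeq2. Within GJA1+ GSTA1+ cells that comparison called 0, 1 by DESeq2 and 23 without the filter. The alternatives on the natural log limit, on thinning with the classes kept, on cells of 10000 to 20000 UMIs and of a mitochondrial share of 10 to 20%, on leaving out cells with MKI67 or TOP2A in the BPIFA2C-rich comparisons, and the test of the difference between the ATP6V1B1 comparisons, were chosen after seeing the data.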

Other observations

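Among GJA1- GSTA1- cells, those with an ATP6V1B1 UMI also differed in acid-base genes. By edgeR 5 of 13 genes of the acid-base list were called higher and 0 lower: SLC9A2 (2.01, SE 0.64), CA1 (1.09, SE 0.16), SLC16A1 (0.59, SE 0.11), CA12 (0.55, SE 0.12) and RHBG (0.53, SE 0.17), the last 2 named after their values were seen, while 0 of 10 tested other V-ATPase subunits were called. Of all 8589 genes tested 5.27% were called higher and 3.68% lower. In GJA1+ GSTA1+ cells the same comparison called 0 of 13 and 0 of all 8589 genes, with CA1 at 0.02 (SE 0.16) and SLC16A1 at -0.16 (SE 0.11). The difference between the classes was called for CA1 (-1.07, SE 0.22, adjusted p = 0.00896) and SLC16A1 (-0.75, SE 0.16, adjusted p = 0.00915). Other values moved with these in the GJA1- GSTA1- cells. KRT5 (0.37, SE 0.07), EPCAM (0.36, SE 0.10) and the cell cycle gene CCNB1 (1.21, SE 0.33) were called higher, all named after their values were seen, and the median over 6 cell cycle genes was 0.77 beside -0.02 over all genes. The median mitochondrial share was 19.8%, 11.8% and 13% in cells with an ATP6V1B1 UMI of cows 1, 2 and 3, against 13.9%, 10.3% and 11.8% in cells without. Cells with an ATP6V1B1 UMI were deeper in both classes. Among cells of 10000 to 20000 UMIs 2 of 12 acid-base genes were called higher in GJA1- GSTA1- cells, beside 0.849% of all genes, and among cells with a mitochondrial share of 10 to 20% 3 of 12, beside 1.88%. The difference between the classes was then called for 0 of 12 in either setting, beside 4 of all genes in each, so the calls for CA1 and SLC16A1 were lost in both. The part of the cell cycle was not tested.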
